A study of Homo sapiens with 6 samples.

Results

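Metallothioneins and genes of zinc control were followed in U2OS cells, a human osteosarcoma cell line, after knockdown of the histone demethylase LSD1. The group held 10 genes picked by symbol, namely MT1E, MT1F, MT1G, MT1M, MT1X, MT2A, MTF1, SLC30A1, SLC39A10 and SLC39A14. Of these, 7 had a row among the 15585 genes of the count table and all 7 were tested, whereas MT1F, MT1G and MT1M were not analysed here. Total RNA was sequenced from 3 libraries of cells given control siRNA (siCTR) and 3 libraries of cells given siRNA against LSD1 (siLSD1), each 48 h after transfection. The study lists 2 LSD1 siRNAs and does not say which was used for RNA-seq, and no label says whether the libraries of a group came from separate cultures, so the p-values may measure technical spread only. The transcriptome was measured to ask whether loss of LSD1 changes the expression of DNA replication genes, and the genes described below were not part of that question.

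Metallothioneins are small proteins rich in cysteine that bind zinc and copper and buffer the free metal inside the cell. Their genes lie in a cluster on chromosome 16 and are switched on when zinc rises, through MTF1, a zinc finger transcription factor that reads the level of zinc and binds short metal response elements in promoters. Zinc leaves the cytosol through the ZnT family, of which SLC30A1 (ZnT1) sits in the plasma membrane and is itself a known target of MTF1. Zinc enters through the ZIP family, which includes SLC39A10 (ZIP10) and SLC39A14 (ZIP14), the second of which also carries iron and manganese.

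The promoters of the metallothioneins and of SLC30A1 are shown because they carry the letters that MTF1 reads. The metal response element was searched as TGCACNC or TGCGCNC on both strands in the 250 bases before the RefSeq start site (GRCh38.p14), and matches are in capitals, with a match on the opposite strand appearing as its reverse complement. The sequences below run 5′ to 3′ on the strand of the gene and end at the base before the start site.
MT2A: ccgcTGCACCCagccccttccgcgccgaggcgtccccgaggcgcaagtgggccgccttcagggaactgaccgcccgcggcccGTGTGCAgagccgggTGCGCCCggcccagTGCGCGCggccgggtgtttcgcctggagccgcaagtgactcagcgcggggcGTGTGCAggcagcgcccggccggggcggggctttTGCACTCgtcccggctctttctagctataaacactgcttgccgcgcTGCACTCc
MT1X: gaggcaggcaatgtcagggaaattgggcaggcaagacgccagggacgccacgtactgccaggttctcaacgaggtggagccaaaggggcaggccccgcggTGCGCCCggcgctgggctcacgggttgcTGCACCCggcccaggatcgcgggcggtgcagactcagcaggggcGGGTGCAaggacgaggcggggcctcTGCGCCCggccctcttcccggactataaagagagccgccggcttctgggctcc
SLC30A1: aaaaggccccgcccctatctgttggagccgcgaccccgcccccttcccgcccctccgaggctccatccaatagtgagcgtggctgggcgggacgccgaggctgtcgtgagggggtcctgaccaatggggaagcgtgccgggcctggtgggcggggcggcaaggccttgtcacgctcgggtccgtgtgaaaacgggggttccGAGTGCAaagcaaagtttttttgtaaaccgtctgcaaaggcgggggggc
The MT2A window (chr16:56608334-56608583, + strand) held 7 matches, a number that 0.033% of 27305 promoters in the RefSeq table reached. In the MT1X window (chr16:56682220-56682469, + strand) there were 4 matches, and 0.366% of promoters held at least as many. SLC30A1 (chr1:211579162-211579411, − strand) had 1 match, as 24.7% of promoters had 1 or more. Among the 9372 promoters of tested genes, 0.0427% held at least 7 matches, 0.491% at least 4 and 33.8% at least 1. None of these matches overlapped another. No match was found in the windows of MTF1 or SLC39A10, which says only that these letters were not in those stretches, and no window was given for MT1E or SLC39A14.

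Knockdown was checked first with KDM1A, the gene of LSD1, which had 6140, 6493 and 6573 reads in siCTR and 1110, 1198 and 1246 reads in siLSD1. The fitted fold was 0.185 of the control. Between 12513511 and 13561344 reads were counted per library. Of the markers fixed for the cell line, VIM and CD44 were abundant, with a mean of 801 and 296 CPM (reads scaled to the library total and TMM factor) in siCTR, whereas the bone genes RUNX2 and SPARC were near 0, at 0.100 and 0.0516 CPM. Of the epithelial markers, KRT8 and KRT18 were abundant, whereas EPCAM and CDH1 were low, at 2.58 and 6.15 CPM in siCTR. CDH1 was at 10.5 CPM in siLSD1, without overlap between the groups (log2 fold change 0.77, unadjusted p = 0.00138 and adjusted p = 0.0699 by edgeR), and KRT18 was at 900 CPM against 1122 CPM in siCTR (log2 fold change −0.32, adjusted p = 0.268 by edgeR). Their part in the results below was not tested. The leukocyte markers PTPRC and LYZ did not exceed 0.156 CPM together in any library. Across the whole table, 171 of 11844 tested genes (1.44%) had a Benjamini-Hochberg adjusted p under 0.05 (edgeR). Of the 7 metallothionein and zinc-control genes, 0 passed it with edgeR, limma-voom or DESeq2. At an unadjusted p under 0.05, 2 of the 7 were called by edgeR, both higher in siLSD1, where 14.0% of all tested genes were called in either direction and 7.48% in the upward direction. The median log2 fold change of the 7 genes was 0.15, beside −0.01 over all tested genes. Because RNA was taken from whole cultures, fewer cells making a transcript and less of it per cell cannot be told apart.

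**Figure D1:**
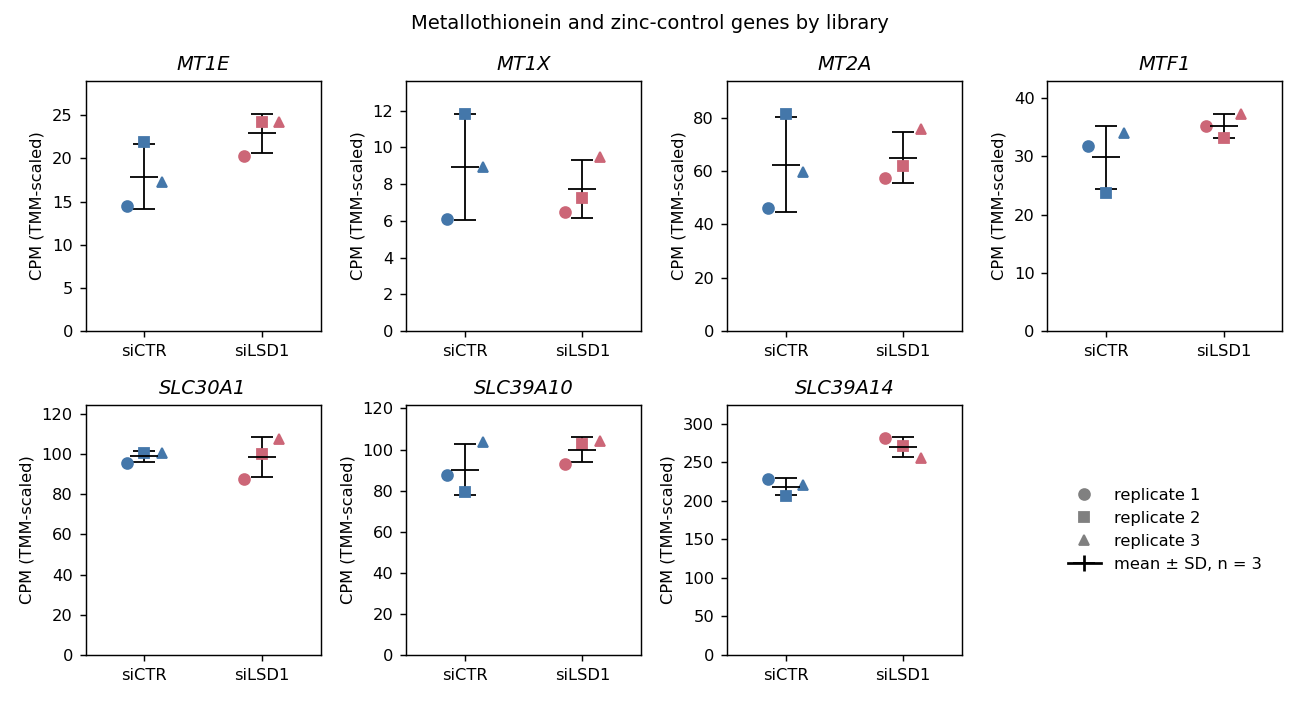
TMM-scaled CPM of the 7 genes (vertical axes, from 0) in siCTR (blue) and siLSD1 (red) libraries, with marker shape for the replicate number and black bars for the mean ± SD (n = 3). Only SLC39A14 had all siLSD1 libraries, at 256 to 282 CPM, above all siCTR libraries, at 207 to 228 CPM.

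The deposited FPKM, which divides by gene length, was used to compare levels between genes. MT2A had the highest level of the group in siCTR, at 62.7 ± 17.2 FPKM (SD, n = 3), followed by SLC39A14 at 41.1 ± 2.55 FPKM (SD, n = 3), and the ranges of these 2 genes did not overlap. SLC30A1 with 18.1 ± 0.375 FPKM, MT1E with 17.0 ± 3.33 FPKM and SLC39A10 with 16.1 ± 2.30 FPKM (SD, n = 3) came next and overlapped one another. MT1X, at 10.8 ± 3.36 FPKM, overlapped MT1E and SLC39A10 through their lowest libraries, while MTF1, at 3.74 ± 0.705 FPKM (SD, n = 3), lay below every other gene of the group. In siLSD1 the order was the same except that MT1E, at 21.8 ± 1.97 FPKM (SD, n = 3), now ranked above SLC30A1 with 18.0 ± 1.68 FPKM (SD, n = 3). This order depends on the gene length used. The lengths behind the deposited FPKM were 0.991 kb for MT2A, 1.05 kb for MT1E and 0.823 kb for MT1X, whereas their shortest coding transcripts in GENCODE release 44 have 401, 332 and 404 bases. With these shorter lengths for the metallothioneins alone, an alternative added after the data were seen, the siCTR levels were 155 ± 42.5 FPKM for MT2A, 53.7 ± 10.5 FPKM for MT1E and 22.1 ± 6.84 FPKM for MT1X (SD, n = 3), which places the mean of MT1E above that of SLC39A14 and the mean of MT1X above that of SLC30A1. Comparisons of 1 gene between siCTR and siLSD1 do not change with its length.

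MT2A (chromosome 16, 56608584 to 56609497, + strand, GRCh38), the most abundant human metallothionein gene in many tissues, did not pass the test after LSD1 knockdown. In order of replicate number, 597, 1046 and 804 reads were counted in siCTR and 770, 771 and 1022 in siLSD1. The siCTR libraries enclosed the siLSD1 libraries, with siCTR replicate 1 the lowest and siCTR replicate 2 the highest of all 6. Scaled levels were 62.4 ± 17.9 CPM in siCTR and 65.0 ± 9.59 CPM in siLSD1 (SD, n = 3). The log2 fold change was 0.06 (SE 0.18) with a 95% confidence interval from −0.34 to 0.46 (adjusted p = 0.912 by edgeR with Benjamini-Hochberg adjustment). With a correction for GC content and transcript length the log2 fold change of MT2A was 0.18 (adjusted p = 0.508 by edgeR). In the fit without it, a change of MT2A beyond 1.37-fold upward or below 0.791 of the control lay outside this interval. With 1 library left out, the log2 fold change of MT2A lay between −0.12, without siCTR replicate 1, and 0.30, without siCTR replicate 2.

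MT1E (chromosome 16, 56625475 to 56627112, + strand) had the largest positive fold change of the group with all 6 libraries, which did not pass adjustment. It had 188, 281 and 233 reads in siCTR and 273, 302 and 327 reads in siLSD1. The groups overlapped, since siCTR replicate 2 at 21.9 CPM exceeded siLSD1 replicate 1 at 20.3 CPM, while the other siLSD1 libraries lay above all controls at 24.2 CPM each. The mean was 17.9 ± 3.73 CPM in siCTR and 22.9 ± 2.25 CPM in siLSD1 (SD, n = 3), a log2 fold change of 0.36 (SE 0.16) with a 95% confidence interval from 0.0028 to 0.71. The unadjusted p was 0.0485 and the adjusted p was 0.351 by edgeR with Benjamini-Hochberg adjustment. With a correction for GC content and transcript length the log2 fold change of MT1E was 0.47 (adjusted p = 0.0542 by edgeR). It passed only when a block for the replicate number was added to this correction, as given under the alternatives. When single libraries were left out, the log2 fold change of MT1E lay between 0.23, without siCTR replicate 1, and 0.53, without siCTR replicate 2. MT1E no longer had the largest value of the group without siCTR replicate 1, siCTR replicate 3 or siLSD1 replicate 3.

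MT1X (chromosome 16, 56682470 to 56684196, + strand) was the least expressed of the 3 metallothionein genes. It had 79, 152 and 120 reads in siCTR and 87, 90 and 128 reads in siLSD1. As with MT2A, siCTR replicates 1 and 2 were the lowest and the highest of all 6 libraries, and the groups overlapped fully. The levels were 8.95 ± 2.88 CPM in siCTR and 7.73 ± 1.57 CPM in siLSD1 (SD, n = 3), a log2 fold change of −0.21 (SE 0.24) with a 95% confidence interval from −0.73 to 0.31 (adjusted p = 0.730 by edgeR with Benjamini-Hochberg adjustment). Without siCTR replicate 2 the value of MT1X turned to 0.05, and with the correction for GC content and length it was −0.14.

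Summed over MT1E, MT1X and MT2A, metallothionein reads came to 89.2 ± 24.5 CPM in siCTR and 95.7 ± 12.8 CPM in siLSD1 (SD, n = 3). The siCTR libraries ran from 66.5 to 115 CPM and the siLSD1 libraries from 84.2 to 109 CPM, so that the control group spanned the knockdown group. The log2 ratio of the group means was 0.10, smaller than the spread of 0.31 (pooled SD of the log2 sum within groups), and it changed sign to −0.07 without siCTR replicate 1. The sum does not depend on how reads were split among these 3 genes, but it would move if reads were given to other metallothionein genes or discarded. In GENCODE, 10.2% of the 50-base windows of the shortest coding MT2A transcript, 18.0% of those of MT1X and 1.77% of those of MT1E recurred exactly in another metallothionein transcript, and 0 windows of 100 bases did. Since the read length and the treatment of reads with several matches are not given in the sources used here, the values of single metallothionein genes, and to some degree their sum, carry this uncertainty.

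**Figure D2:**
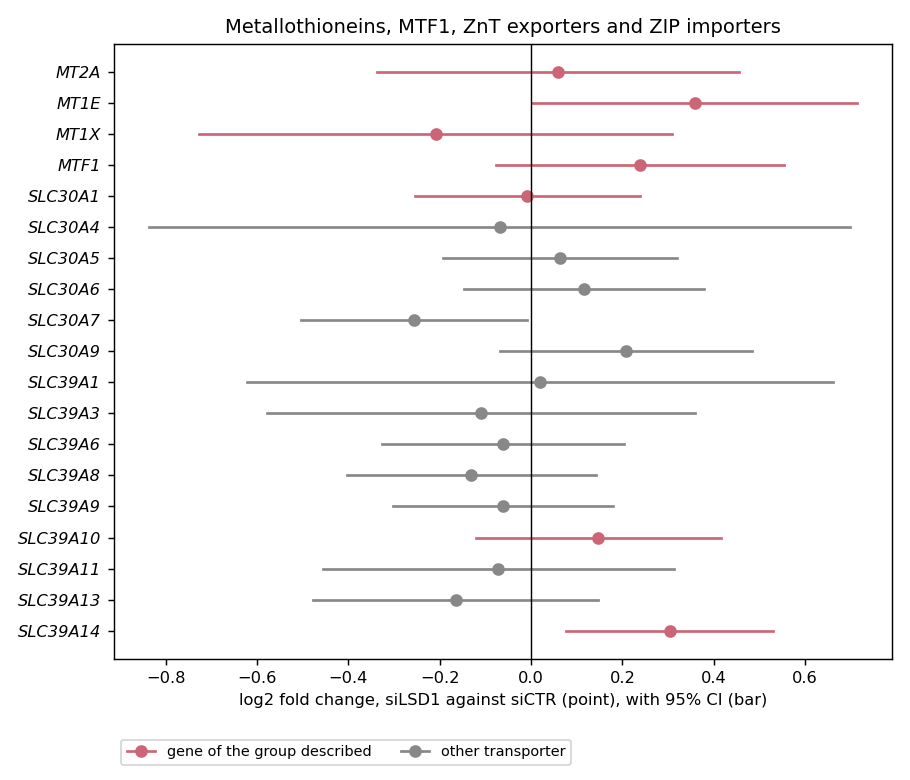
Log2 fold change of siLSD1 against siCTR (points) with 95% confidence intervals (bars) for the metallothioneins, MTF1 and the tested ZnT and ZIP transporters, with genes of the group in red. The interval of SLC39A14 ran from 0.08 to 0.53 and that of MT1E from 0.0028 to 0.71, while the intervals of the other 5 genes of the group included 0.

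Within the summed metallothionein reads, the share of MT1E was higher and that of MT1X was lower in every siLSD1 library than in every siCTR library. This comparison was chosen after the values were seen and is given as a description without a test. MT1E made up 21.8%, 19.0% and 20.1% of these reads in siCTR replicates 1, 2 and 3, and 24.2%, 26.0% and 22.1% in siLSD1 replicates 1, 2 and 3. The gap between siCTR replicate 1 and siLSD1 replicate 3 was narrow, and their 95% Wilson intervals, which cover counting error only, ran from 19.1% to 24.6% and from 20.1% to 24.3%. MT1X made up 9.14%, 10.3% and 10.4% of the reads in siCTR, and 7.70%, 7.74% and 8.67% in siLSD1. MT2A, which supplied 69.1% to 70.7% in siCTR and 66.3% to 69.2% in siLSD1, overlapped between the groups. These shares are ratios within a library, which no scaling between libraries can move, and they cannot say which of the genes differed. Most of the counting intervals overlapped between the groups. Groups without overlap in CPM were found for 21.4% of all tested genes. That background is for single genes, and none was worked out for shares.

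**Figure D3:**
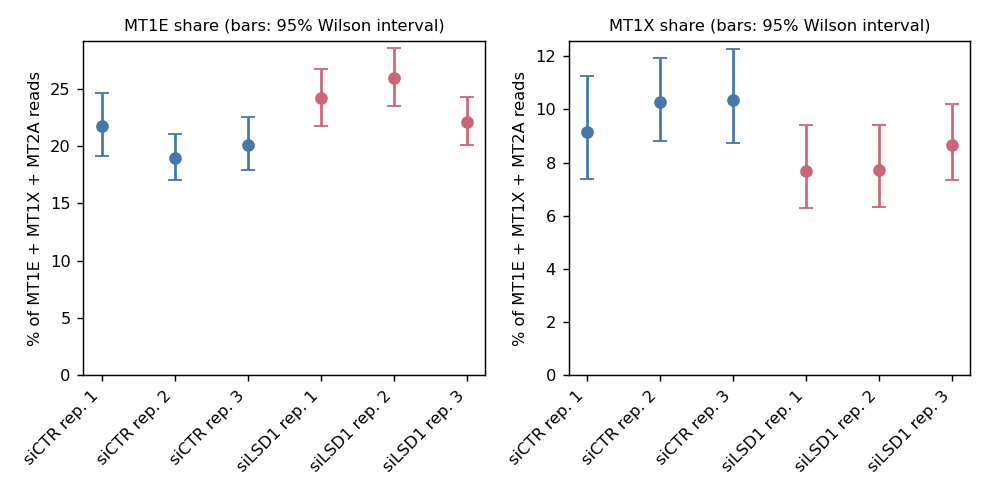
Share of MT1E (left) and MT1X (right) in the summed reads of MT1E, MT1X and MT2A, in percent (vertical axes, from 0), for siCTR (blue) and siLSD1 (red) libraries with 95% Wilson intervals. MT1E lay at 19.0% to 21.8% in siCTR and 22.1% to 26.0% in siLSD1, and most intervals of the 2 groups overlapped.

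In log2 CPM, the metallothioneins varied more between control libraries than most genes did. The SD of log2 CPM over the siCTR libraries was 0.41 for MT2A, above that of 92.1% of tested genes, 0.47 for MT1X, above 94.8%, and 0.30 for MT1E, above 81.3%. The median over all tested genes was 0.17. In siLSD1 the same SD was 0.21, 0.28 and 0.14, and the median over all tested genes was 0.15. SLC30A1, in contrast, had an SD of 0.04 in siCTR, and 4.68% of tested genes had a smaller one, but its SD in siLSD1 was 0.15, near the median over all genes. Short genes as a class also differed between libraries, as was seen after the values were examined. The median over 283 tested genes with a length of 0.8 to 1.1 kb, which includes all 3 metallothioneins, was 0.30 above its mean over the 6 libraries in siCTR replicate 2 and at 0.0002 and −0.05 from it in siCTR replicates 1 and 3, and it was at −0.18 in siLSD1 replicate 3 (log2 CPM). MT2A stood 0.38 above its own mean in siCTR replicate 2, and at −0.44 from it in siCTR replicate 1, where the short genes were at 0.0002. Relative to the median of these short genes, the SD in siCTR was 0.36 for MT1X, 0.28 for MT2A and 0.17 for MT1E. The share of genes with a smaller SD was not worked out on this scale. On this relative scale the difference between siLSD1 and siCTR was 0.52 for MT1E, 0.24 for MT2A and −0.03 for MT1X. The groups of MT1E then did not overlap, as was the case for 20.1% of the 283 short genes and 18.1% of all tested genes on this scale, while those of MT2A and MT1X overlapped.

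**Figure D4:**
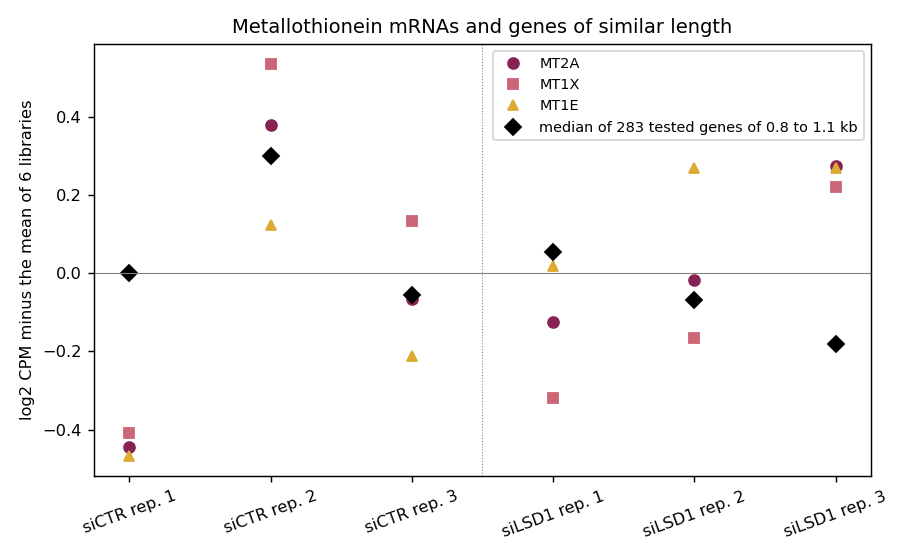
Log2 CPM of MT2A, MT1X and MT1E minus each gene's mean over the 6 libraries (vertical axis), with the median of 283 tested genes of 0.8 to 1.1 kb as black diamonds, for siCTR libraries left and siLSD1 libraries right of the dotted line. All 3 genes were below their mean in siCTR replicate 1, and all 3 and the short genes were above it in siCTR replicate 2.

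The genes whose profile over the 6 libraries was most like that of MT2A were APIP, an enzyme of methionine salvage, PCLAF, which encodes a factor bound to PCNA, and KCNK1, a potassium channel gene. Likeness was the root mean square difference of log2 CPM after centring each gene on its mean over 6 libraries, which was 0.05 for APIP, 0.06 for PCLAF and 0.07 for KCNK1. On the same measure MT1X and MT1E were at 0.15 and 0.18 from MT2A, and would rank 205 and 577 by nearness to it among the tested genes outside the family (11844 genes were tested in all).

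MTF1 (chromosome 1, 37809574 to 37859592, − strand), the factor that drives metallothionein genes, had 413, 305 and 456 reads in siCTR and 472, 413 and 503 reads in siLSD1. The groups overlapped narrowly, as siCTR replicate 3 was at 33.9 CPM and siLSD1 replicate 2 at 33.1 CPM. The low siCTR replicate 2 set much of the difference between the means of 29.8 ± 5.36 CPM and 35.2 ± 2.08 CPM (SD, n = 3). The log2 fold change was 0.24 (SE 0.15) with a 95% confidence interval from −0.08 to 0.55 (adjusted p = 0.492 by edgeR with Benjamini-Hochberg adjustment), and it was 0.10 without siCTR replicate 2. That library was also low in long genes, with a median of −0.11 on the log2 scale over 2551 tested genes of 5 to 8 kb. With a correction for GC content and transcript length, the log2 fold change of MTF1, whose length was 7.97 kb, was 0.15 (adjusted p = 0.356 by edgeR).

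SLC30A1 (chromosome 1, 211571568 to 211579161, − strand), which exports zinc, was at nearly the same level in both groups. It had 1243, 1289 and 1355 reads in siCTR and 1177, 1246 and 1449 reads in siLSD1, with both the lowest and the highest CPM in siLSD1. The mean was 99.0 ± 2.80 CPM in siCTR and 98.4 ± 9.96 CPM in siLSD1 (SD, n = 3). The log2 fold change was −0.01 (SE 0.11), and the 95% confidence interval from −0.25 to 0.24 left out changes larger than 1.18-fold upward or below 0.838 of the control (adjusted p = 0.981 by edgeR with Benjamini-Hochberg adjustment). SLC30A1 had the narrowest spread of the group in siCTR, from 95.7 to 101 CPM.

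Of the other zinc exporters, which mostly load zinc into the Golgi and into vesicles, none passed the adjusted threshold in edgeR. Of 10 ZnT genes listed, 8 were in the table and 6 were tested, with 3 higher, 3 lower and a median log2 fold change of 0.03. SLC30A7 (ZnT7), a Golgi transporter, was the only member of the family under an unadjusted p of 0.05, with 678, 623 and 751 reads in siCTR and 582, 548 and 590 reads in siLSD1. The calls at this threshold over all tested genes came to 14.0%. The groups of SLC30A7 did not overlap in CPM, as in 21.4% of all tested genes, and the log2 fold change was −0.26 (SE 0.11, adjusted p = 0.334 by edgeR with Benjamini-Hochberg adjustment).

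SLC39A14 (chromosome 8, 22367278 to 22434129, + strand), which imports zinc, iron and manganese, had the smallest p of the group. It had 2964, 2655 and 2964 reads in siCTR and 3780, 3381 and 3449 reads in siLSD1, and every siLSD1 library lay above every siCTR library. The mean was 218 ± 10.9 CPM in siCTR and 270 ± 13.1 CPM in siLSD1 (SD, n = 3), which is 1.23-fold, with a 95% confidence interval from 1.05-fold to 1.44-fold. The log2 fold change was 0.30 (SE 0.10), an unadjusted p of 0.0129 and an adjusted p of 0.206 by edgeR with Benjamini-Hochberg adjustment. Leaving out single libraries gave values from 0.27 to 0.34. With the correction for GC content and transcript length the log2 fold change of SLC39A14 was 0.25 (adjusted p = 0.0520 by edgeR). The gene passed only when a block for the replicate number was added to this correction, as given under the alternatives. Only SLC39A14 of the 7 genes had groups without overlap in CPM, where 21.4% of all tested genes did.

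SLC39A10 (chromosome 2, 195575977 to 195737702, + strand), the other zinc importer of the group, had 1137, 1018 and 1394 reads in siCTR and 1246, 1277 and 1405 reads in siLSD1. The groups overlapped, because siCTR replicate 3 at 104 CPM lay above siLSD1 replicates 1 and 2 at 92.8 and 102 CPM. The mean was 90.2 ± 12.4 CPM in siCTR and 99.8 ± 6.10 CPM in siLSD1 (SD, n = 3), a log2 fold change of 0.15 (SE 0.12) with a 95% confidence interval from −0.12 to 0.41 (adjusted p = 0.625 by edgeR with Benjamini-Hochberg adjustment). The log2 fold change of SLC39A10 was 0.06 without siCTR replicate 2 and 0.26 without siCTR replicate 3. Of 14 ZIP genes listed, 12 were in the table and 9 were tested, with 3 higher, 6 lower and a median log2 fold change of −0.06. None of them passed the adjusted threshold in edgeR, and SLC39A14 was the only ZIP gene under an unadjusted p of 0.05, where 14.0% of all tested genes were called.

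**Figure D5:**
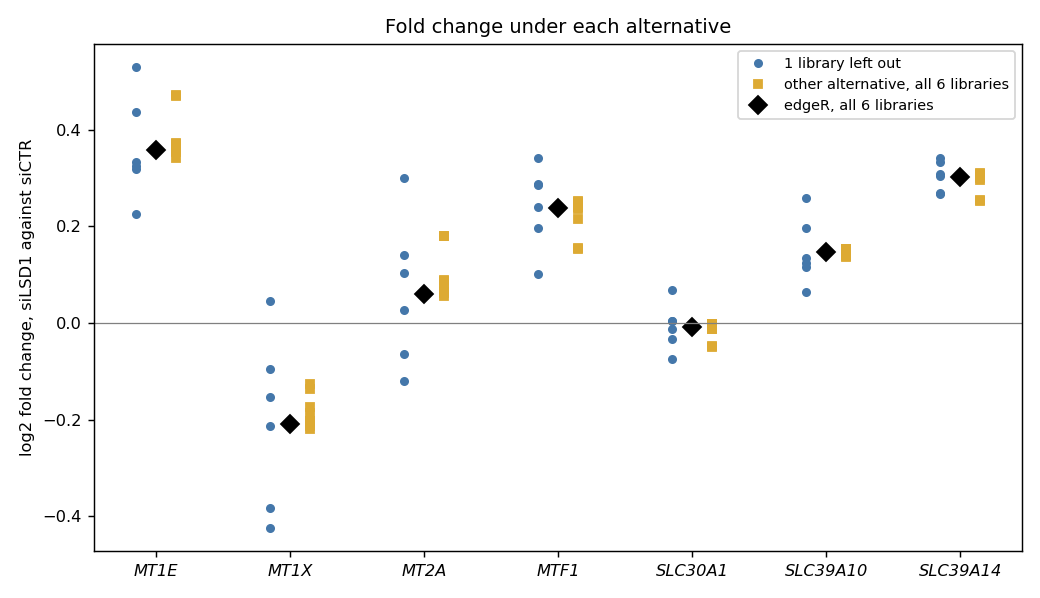
Log2 fold change of siLSD1 against siCTR (vertical axis) of the 7 genes with all libraries (black), with 1 library left out (blue) and under the other alternatives (yellow). SLC39A14 stayed between 0.25 and 0.34 and MT1E between 0.23 and 0.53, while MT2A, MT1X and SLC30A1 fell on both sides of 0.

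Genes that respond to metals or handle copper and iron were followed beside the group. Of 13 tested genes of the metal response list, 1 passed the adjusted threshold, which 1.44% of all tested genes passed. This was HMOX1, encoding heme oxygenase, which is induced by heme, oxidants and cadmium, and its groups did not overlap, as in 21.4% of all tested genes. HMOX1 had 451, 466 and 421 reads in siCTR and 323, 241 and 246 reads in siLSD1, and fell by 0.73 on the log2 scale (SE 0.14, adjusted p = 0.0228 by edgeR with Benjamini-Hochberg adjustment). When single libraries were left out, the call of HMOX1 was kept in 2 of 6 fits, and the adjusted p was 0.0785 without siCTR replicate 2, 0.0559 without siCTR replicate 3, 0.136 without siLSD1 replicate 2 and 0.0617 without siLSD1 replicate 3 (edgeR, Benjamini-Hochberg adjustment). Its log2 fold change lay between −0.86 and −0.65 in these 6 fits. CEBPA, a transcription factor gene, had a log2 fold change of −0.52 and an adjusted p of 0.311 by edgeR with Benjamini-Hochberg adjustment. The median of this list was −0.11. Of 13 tested genes of copper handling, 0 had an unadjusted p under 0.05 in edgeR, beside 14.0% of all tested genes. Among these 13 genes 2 were higher and 11 were lower, with a median log2 fold change of −0.07, while 6246 of all 11844 tested genes were lower. The largest difference among them was that of SCO2, a copper chaperone of cytochrome oxidase, with a log2 fold change of −0.34 and an adjusted p of 0.367 by edgeR with Benjamini-Hochberg adjustment.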

How the data were processed

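RNA-seq libraries of U2OS cells (3 siCTR, 3 siLSD1) were grouped and numbered from their labels. Clean reads were aligned by the authors with STAR. The deposited table holds whole read counts per gene, a signal that is the count divided by a size factor (not used further), and FPKM. The genome build, annotation and counter are not given in the sources used here. Tables of pairs, each setting a siCTR library against the siLSD1 library of the same number, hold a second counting, used as an alternative. The authors' deposited fold changes and p-values from DESeq2 were not used.

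Counts were scaled with TMM, filtered with filterByExpr (minimum count 10, leaving 11844 of 15585 genes) and fitted by quasi-likelihood in edgeR 4.0.16 under R 4.3.3, without covariates. P-values were adjusted over all tested genes. Standard errors came from the weights and the moderated dispersion of that fit, and log-CPM used a prior count of 2. On simulated counts with 200 of 11774 genes changed by 1 on the log2 scale, 90% were recovered with 1 false call. The totals (12513511 to 13561344 reads) set the counting error, and the biological coefficient of variation was 12.6%. Each pair of libraries differed beyond sampling noise (chi-square per degree of freedom 6.45 to 39.3). Alternatives were DESeq2 1.42.0, limma-voom (limma 3.58.1), other scalings and filters, a block for the replicate number, the second counting, a lowess correction (span 0.3) for GC content and transcript length, and leaving out each library.

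The genes, lists and rule for named genes were chosen with earlier results of these data known. Named were all genes of the group, KDM1A and, from each pathway list (not the cell type markers), genes past an adjusted p of 0.05 and the 2 largest changes at an unadjusted p under 0.05 (otherwise the largest change). Coordinates are from GENCODE release 44, matched by symbol for 14963 genes and through a RefSeq synonym for 389. Promoters are from RefSeq (GRCh38.p14), with 5 of the 7 genes matched.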

Additional observations from a re-analysis of the deposited data

How the results depend on the processing

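All genes of the group missed an adjusted p of 0.05 under every alternative with all libraries or with 1 library left out, with the exception of the replicate block together with the correction for GC content and length. With both, 2 genes passed, MT1E with a log2 fold change of 0.47 and SLC39A14 with 0.25 (adjusted p = 0.0118 and 0.0301 by edgeR with Benjamini-Hochberg adjustment), and 725 higher and 575 lower genes were called in all. With the replicate block alone, 489 higher and 408 lower genes were called but 0 of the group. There the adjusted p was 0.0813 for MT1E and 0.0749 for SLC39A14 (edgeR, Benjamini-Hochberg adjustment). Same-numbered libraries deviated together with correlations of 0.33, 0.07 and 0.31 over genes, so the numbers were not taken as pairs. Each library still correlated best with its own number, and the deposited tables of pairs match the same numbers. The adjusted p-values of the report therefore hold only for libraries treated as unpaired. The correction for GC content and length alone called 525 higher and 342 lower genes, DESeq2 called 210 and 113, no filter called 102 lower, and the unadjusted threshold called 886 and 776, against 127 and 44 in the report. At the unadjusted threshold 2 genes of the group were higher. With 1 library left out, 45 to 99 genes were higher and 7 to 37 were lower.

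The direction turned only with 1 library left out, for MT1X (0.0453 without siCTR replicate 2), MT2A (−0.12 without siCTR replicate 1 and −0.06 without siLSD1 replicate 3) and SLC30A1 (0.0045 without siCTR replicate 2, 0.0036 without siCTR replicate 3 and 0.0676 without siLSD1 replicate 1). The cause was not tested. With single libraries left out, the log2 fold change ran from −0.424 to 0.0453 for MT1X, −0.12 to 0.30 for MT2A and −0.0751 to 0.0676 for SLC30A1. The other 104 log2 fold changes of single genes kept their direction and their side of the threshold. The log2 ratio of summed metallothionein reads was 0.19 without MT2A, 0.13 without MT1X, 0.28 when scaled to short genes (chosen after seeing the data) and −0.07 to 0.33 with 1 library left out. The 95% confidence intervals leave rises of the metallothioneins up to 1.64-fold for MT1E, 1.24-fold for MT1X and 1.37-fold for MT2A undetermined.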

Other observations

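Metallothionein genes also respond to glucocorticoids and heat, and lists of both responses were examined. Of 12 tested genes of the glucocorticoid response, 0 passed an adjusted p of 0.05 in edgeR, while DUSP1, named after its value was seen, was higher and KLF9 and CDKN1C were lower at the unadjusted threshold, which 14.0% of all tested genes passed. FKBP5, a widely used reporter of the glucocorticoid receptor, was at 87.1 ± 0.476 CPM in siCTR and 89.6 ± 6.22 CPM in siLSD1 (SD, n = 3). It was named after its values were seen. KLF9, another gene induced by the receptor, was at 12.1 ± 0.467 CPM in siCTR and 8.86 ± 1.23 CPM in siLSD1 (SD, n = 3), a log2 fold change of −0.45 (adjusted p = 0.226 by edgeR with Benjamini-Hochberg adjustment). CDKN1C, an inhibitor of cyclin-dependent kinases, was near the detection limit, with 12 to 18 reads per siCTR library and 1 to 9 per siLSD1 library, and a log2 fold change of −1.41 (adjusted p = 0.260 by edgeR with Benjamini-Hochberg adjustment).

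Of 11 tested heat shock genes, 10 had a negative log2 fold change, with a median of −0.15, and 0 passed the adjusted threshold in edgeR. Of the genes listed, HSPA1A and HSF1 had no row, and HSPA1B, with 0 or 1 read per library, was not tested. Over all tested genes 6246 of 11844 were negative. HSPH1, a chaperone of the HSP110 family, was the only heat shock gene under an unadjusted p of 0.05, beside 14.0% of all tested genes, at 457 ± 37.7 CPM in siCTR and 380 ± 48.0 CPM in siLSD1 (SD, n = 3), and the log2 fold change was −0.27 (adjusted p = 0.349 by edgeR with Benjamini-Hochberg adjustment).

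Among 9 tested genes in the neighbourhood of the metallothionein cluster on chromosome 16, 0 had an unadjusted p under 0.05 in edgeR, beside 14.0% of all tested genes. The median log2 fold change was −0.10, with 2 genes higher and 7 lower. The higher genes were BBS2 at 0.25 and HERPUD1 at 0.21, named after their values were seen. The largest change was that of CETP, a lipid transfer protein gene with 9 to 30 reads per library, at −0.44 (adjusted p = 0.660 by edgeR with Benjamini-Hochberg adjustment).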
